A study of Cucumis sativus with 2 samples.

Results

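The genes described here are the cucumber homologues of 54 Arabidopsis loci that make, break down or move sucrose and the raffinose sugars. They were found by the Arabidopsis locus that the deposited tables give beside each cucumber gene. Of the 54 loci, 35 were carried by a total of 59 cucumber genes, out of 20700 genes in the read table. A gene was called measured when it had at least 20 reads in both libraries together, which held for 43 of the 59 genes, from 33 loci. Bending fruit of cucumber (Cucumis sativus) was sampled 2 days after anthesis, with 1 library of ventral and 1 library of dorsal tissue. The labels name no genotype, cultivar or treatment and do not say how many fruits were pooled. Each side has 1 library, so there is no replicate error, no test and no p-value, and every difference below describes these 2 libraries. Names such as SWEET17 are those of the Arabidopsis homologue, and the roles given are those known in Arabidopsis unless another plant is named.

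Cucurbits load raffinose and stachyose into the phloem as well as sucrose. Galactinol synthase makes the galactose donor from which raffinose and stachyose synthases build these sugars. In a sink such as a young fruit, α-galactosidases split the galactose off, sucrose is released or made again by sucrose-phosphate synthase, and invertases or sucrose synthase cleave it. SWEET proteins let sugars pass across membranes down their gradient, whereas SUC and STP carriers take up sucrose and hexoses with protons and TMT carriers fill the vacuole. In bulk tissue, fewer cells of a type and less RNA per cell cannot be told apart.

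Counted reads came to 21863715 in the ventral library and 11893394 in the dorsal one. The 59 sugar genes took 71060 of the ventral and 24417 of the dorsal reads. Levels are given as the deposited RPKM (reads scaled for gene length and depth), which can be compared between genes, and ratios are ventral over dorsal reads after TMM scaling, by which the ventral library was 2.16 times as deep as the dorsal one. The ratio of deposited RPKM values lies above the TMM ratio by 0.26 on the log2 scale, apart from rounding. Brackets give 95% counting intervals of the log2 ratio. They cover counting error only, not variation between fruits or libraries. Amplified copies are not independent molecules, so the intervals may be too narrow even for counting error. A gene stood apart, as ventral-high or dorsal-high, where the difference passed 2-fold and the interval of the ratio did not include 1. The carpel regulator homologues AG and FUL were well expressed. AG had 1806 ventral and 1587 dorsal reads, and FUL had 1961 ventral and 1904 dorsal reads. After TMM scaling the log2 ratios were -0.92 for AG and -1.07 for FUL. FUL was thus dorsal-high, but not after the adjustment for transcript length described below. Among other carpel markers, CRC, with 10 ventral and 27 dorsal reads, was dorsal-high. An SPT copy (Csa6G491000), with 52 ventral and 8 dorsal reads, was ventral-high, and another (Csa2G356640) had a log2 ratio of -0.16. The loci of SHP1 and STK had no row in the tables analysed here, and INO, a marker of the ovule's outer coat, had at most 3 reads per gene and library.

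Of the 43 genes, 7 were ventral-high, 3 were dorsal-high and 33 were neither. That is 16.3% ventral-high against 13.2% of 17462 genes over the whole table, and 6.98% dorsal-high against 11.5% of them. The shares lie near those of the whole table, so the counts alone say nothing particular about sugar genes. The median log2 ratio was 0.22 for the sugar genes and 0.011 for all measured genes. The 7 ventral-high genes were homologues of GOLS2, RS5, SIP2, SPS1F, SUS4, SWEET12 and TMT2, each from a different step. The 3 dorsal-high genes were homologues of SWEET17, SWEET1 and CWINV1. Of the 23 measured enzyme genes, 5 were ventral-high (21.7%, against 13.2%) and 1 dorsal-high (4.35%, against 11.5%). Of the 20 measured carrier genes, 2 were ventral-high and 2 dorsal-high (10% each).

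**Figure D1:**
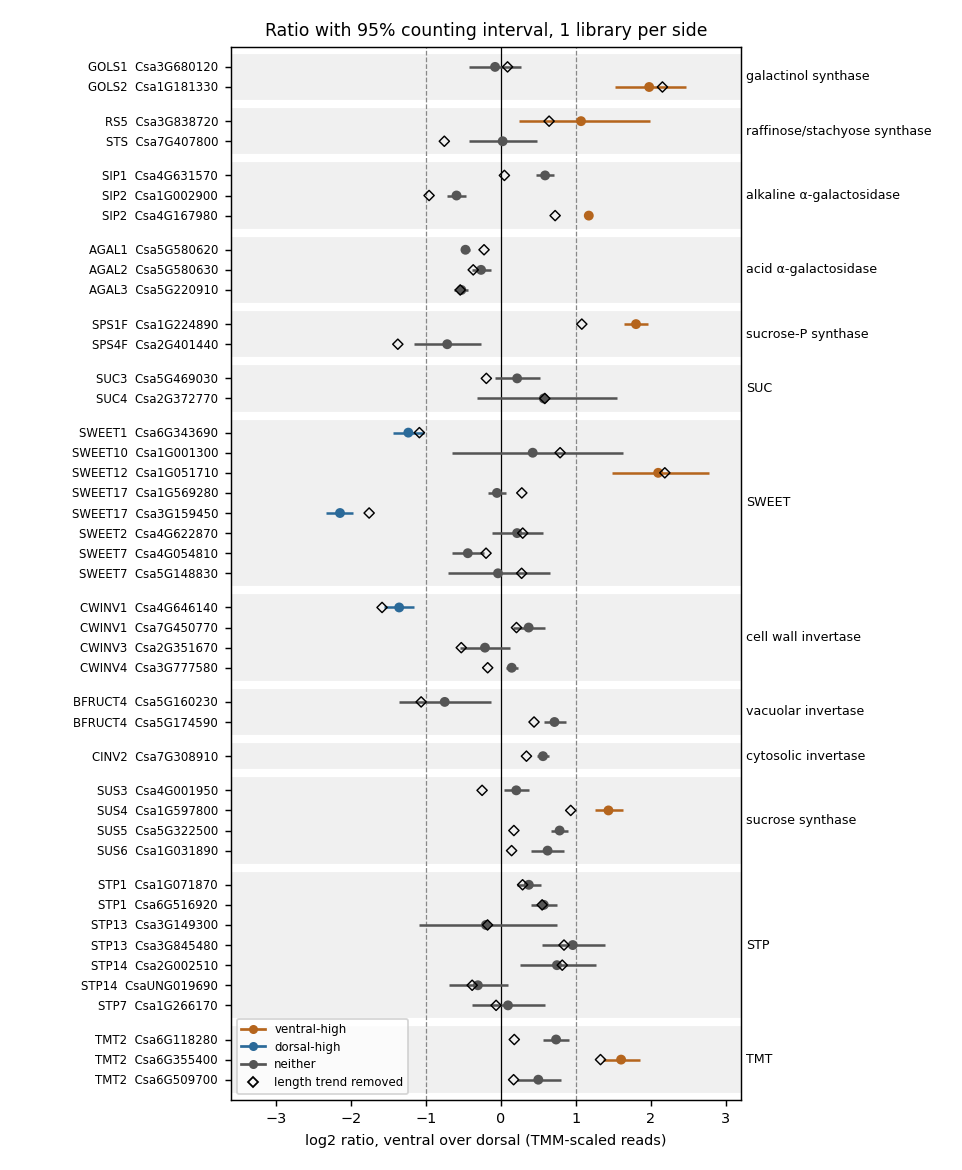
Log2 ratio of TMM-scaled reads, ventral over dorsal, for the 43 measured sugar genes, grouped by step. Circles are ratios with 95% counting intervals, coloured where a gene stood apart (ventral-high or dorsal-high), open diamonds are the ratios with the length trend removed, and dashed lines mark 2-fold; the ends of the range are SWEET12 at 2.10 and a SWEET17 copy at -2.14.

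Transcript length moved with the ratio in these libraries. Across all measured genes the median log2 ratio was -0.30 for exonic lengths up to 607 bp, -0.53 for 607 to 857 bp and 0.74 above 2851 bp, a Spearman correlation of 0.39 across genes that are not independent. The sugar families differ in length, with a median of 1138 bp for SWEET genes, 2714 bp for sucrose synthases and 3396 bp for sucrose-phosphate synthases. The plot of ratios therefore also shows each of the 43 genes with the trend of all measured genes subtracted, called length-adjusted. With that step 4 sugar genes (9.30%) were ventral-high, against 10.9% of all measured genes, and 5 (11.6%) were dorsal-high, against 8.34%. Among the enzyme genes 2 were then ventral-high (8.70%, against 10.9%) and 3 dorsal-high (13.0%, against 8.34%). The carrier genes kept 2 on each side (10% each). With so few genes, these counts are not read as a lean of either group. The ventral-high genes were then GOLS2, SPS1F, SWEET12 and the TMT2 copy. The SWEET17, SWEET1 and CWINV1 copies stayed dorsal-high and were joined by SPS4F and 1 of the BFRUCT4 copies.

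**Figure D2:**
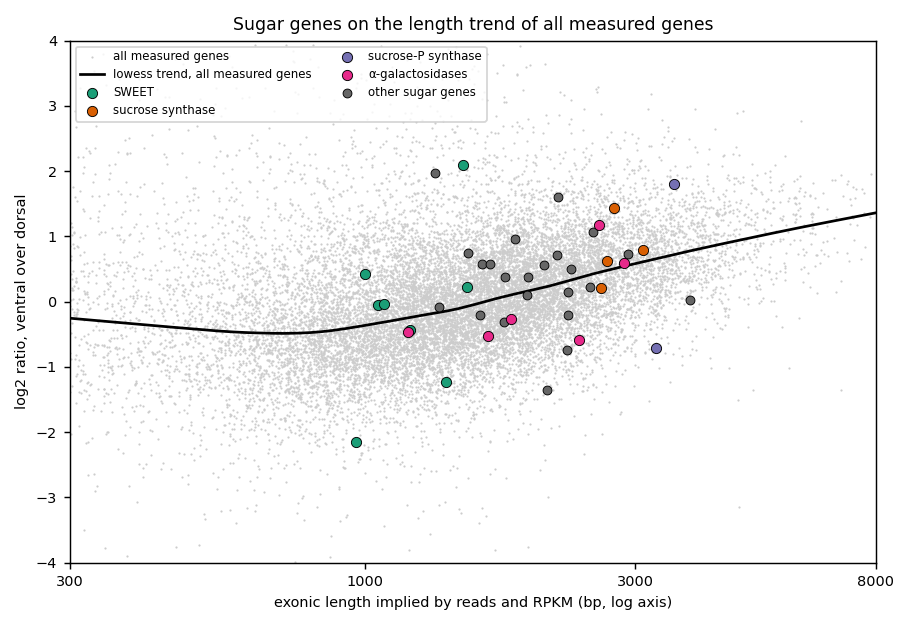
Log2 ratio, ventral over dorsal, against exonic length in bp (log axis) for all measured genes in grey, with the sugar genes as larger points and the lowess trend over all measured genes as a line. Within the axes the line is lowest at -0.49, near 717 bp, and higher on both sides of it, reaching 1.35 near 7829 bp, and 552 genes beyond the axes are not drawn.

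By summed RPKM per step, galactinol synthases and the enzymes that build raffinose and stachyose were the least abundant enzymes listed. Some single genes of other steps were lower than either galactinol synthase gene, such as SPS4F at 1.37 RPKM in the ventral and 1.90 RPKM in the dorsal library. GOLS2 (AT1G56600, Csa1G181330, chromosome 1) had 366 ventral and 43 dorsal reads, or 12.5 and 2.69 RPKM in the ventral and dorsal libraries. It was 3.94-fold higher in the ventral library [1.52 to 2.47], and its length-adjusted log2 ratio was 2.16. The other galactinol synthase gene, GOLS1 (AT2G47180, Csa3G680120), had 215 ventral and 105 dorsal reads at 7.24 and 6.35 RPKM, a log2 ratio of -0.077 [-0.42 to 0.27] and 0.090 after length adjustment. The more abundant galactinol synthase was thus GOLS2 in the ventral library, with 63.4% of the summed RPKM, and GOLS1 in the dorsal library, where GOLS2 held 29.8%. In Arabidopsis both genes are known for induction by drought and salt.

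The raffinose synthase homologue RS5 (AT5G40390, named SIP1 in the deposited table, Csa3G838720) had 68 ventral and 15 dorsal reads. Its 2.10-fold excess in the ventral library had a wide interval [0.25 to 1.98] and a length-adjusted log2 ratio of 0.64, short of 2-fold. A further RS5 copy (Csa1G046280) had 6 ventral and 0 dorsal reads. Stachyose synthase (STS, AT4G01970, Csa7G407800), which adds galactose to raffinose, had 134 ventral and 61 dorsal reads at 1.62 and 1.33 RPKM, a log2 ratio of 0.025 [-0.42 to 0.49]. Its transcript is long, and the length-adjusted log2 ratio was -0.75 [-1.20 to -0.29]. All raffinose and stachyose synthase genes together summed to 2.95 RPKM in the ventral and 1.84 RPKM in the dorsal library.

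By summed RPKM per step, the α-galactosidases were the most abundant sugar enzymes in both libraries. The SIP1 and SIP2 genes of the alkaline family summed to 496 RPKM in the ventral and 210 RPKM in the dorsal library. With RS6 (AT5G20250, Csa1G229500), a family gene outside the 54 loci that was at 161 RPKM in the ventral and 279 RPKM in the dorsal library, the sums were 657 and 489 RPKM. Most of the SIP1 and SIP2 sum was 1 copy of SIP2 (AT3G57520, Csa4G167980, chromosome 4), an alkaline α-galactosidase that acts on raffinose. It had 24912 ventral and 5115 dorsal reads, at 436 and 161 RPKM. Among all genes of the read table it ranked at place 216 by RPKM in the ventral and at place 872 in the dorsal library. It took 35.1% of all reads on sugar genes in the ventral library and 20.9% in the dorsal one. The ratio was 2.26-fold higher in the ventral library [1.13 to 1.22], and the length-adjusted log2 ratio of 0.72 was short of 2-fold.

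The other SIP2 copy (Csa1G002900) went the other way, with 1160 ventral and 809 dorsal reads and a log2 ratio of -0.59 [-0.72 to -0.46], or -0.96 after length adjustment. SIP1 (AT1G55740, Csa4G631570), of the same enzyme family, had 2400 ventral and 738 dorsal reads and a log2 ratio of 0.59 [0.47 to 0.71], and its length-adjusted value was 0.048. Neither stood apart.

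The 3 acid α-galactosidases, which work at the acid pH of vacuoles and cell walls, all had log2 ratios below 0. The alkaline family lay on both sides of 0. SIP1 and the SIP2 copy Csa4G167980 were above it, and the SIP2 copy Csa1G002900 and RS6, at -0.59 and -1.06, were below. AGAL1 (AT5G08380, Csa5G580620) had 5782 ventral and 3712 dorsal reads, at 220 and 255 RPKM, and a log2 ratio of -0.47 [-0.53 to -0.41]. AGAL3 (AT3G56310, Csa5G220910) was at 64.3 and 77.3 RPKM in the ventral and dorsal libraries, with a log2 ratio of -0.53. AGAL2 (AT5G08370, Csa5G580630) was at 35.4 and 35.5 RPKM, with a log2 ratio of -0.26. All were short of 2-fold, and their length-adjusted log2 ratios were -0.22, -0.54 and -0.37 for AGAL1, AGAL3 and AGAL2. The RPKM of SIP1 and SIP2 genes over that of acid α-galactosidases was 1.55 in the ventral library and 0.571 in the dorsal one, a proportion within each library that does not depend on library scaling. With RS6 counted in, the alkaline family exceeded the acid one in both libraries, by 2.05 times in the ventral and 1.33 times in the dorsal library. The SIP1 and SIP2 genes are longer, with a median of 2591 bp against 1650 bp for the acid ones.

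**Figure D3:**
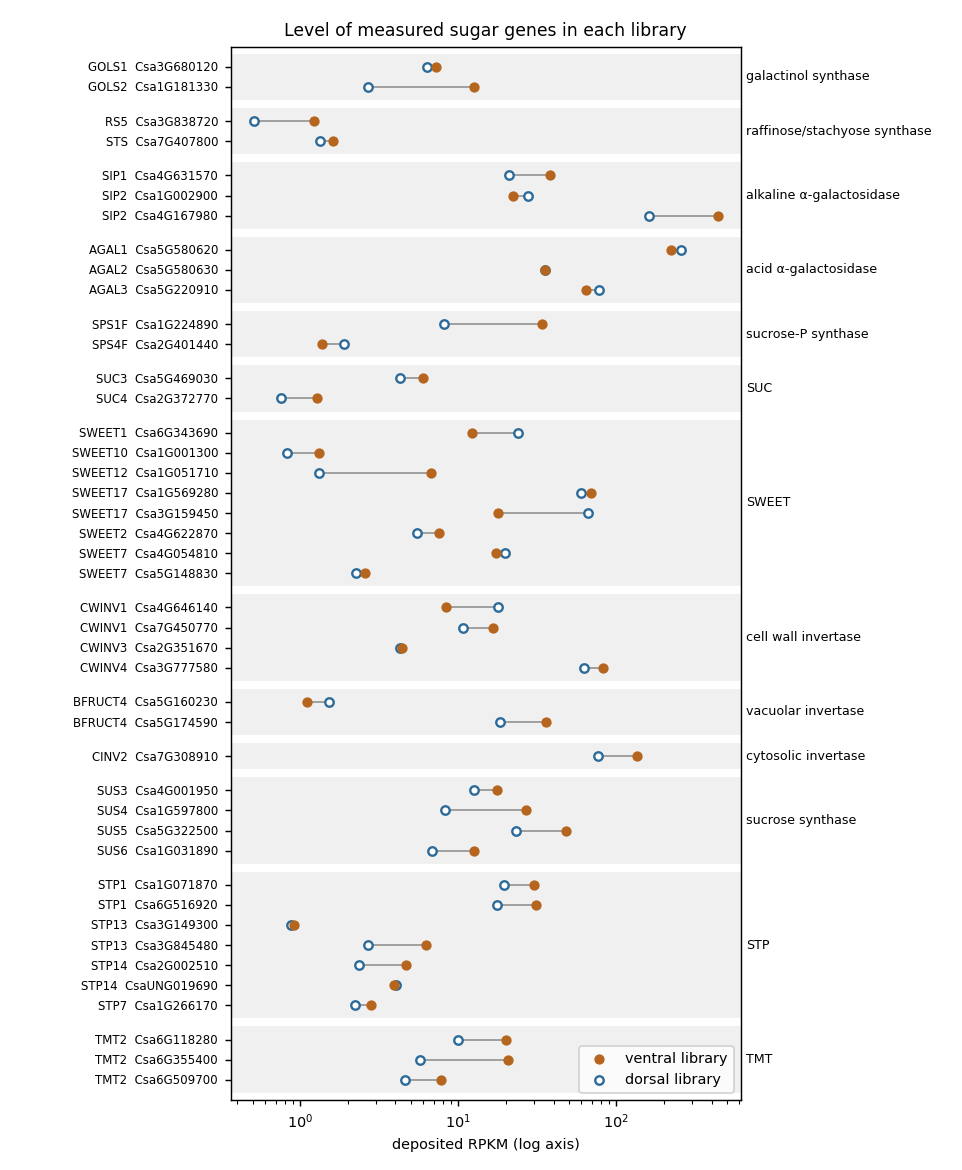
Deposited RPKM (log axis) of each measured sugar gene, with filled circles for the ventral and open circles for the dorsal library. Levels run from 0.91 to 436 RPKM in the ventral and from 0.51 to 255 RPKM in the dorsal library, and the highest of these genes is a SIP2 copy in the ventral and AGAL1 in the dorsal library.

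Sucrose-phosphate synthase, which makes sucrose phosphate from UDP-glucose and fructose phosphate, had 2 measured genes among the 54 loci, with ratios on either side of 1. SPS1F (AT5G20280, SPSA1 in the deposited table, Csa1G224890, chromosome 1) had 2630 ventral and 349 dorsal reads, at 33.9 and 8.11 RPKM. It was 3.49-fold higher in the ventral library [1.64 to 1.97], and it still stood apart after length adjustment at 1.08. SPS4F (AT4G10120, Csa2G401440) had 100 ventral and 76 dorsal reads, at 1.37 and 1.90 RPKM, and a log2 ratio of -0.71 [-1.16 to -0.26]. Its transcript is long, and the length-adjusted log2 ratio was -1.37, past 2-fold in the dorsal direction. A further family gene outside the 54 loci, SPS3F (AT1G04920, Csa2G121970), had 91 ventral and 66 dorsal reads, at 1.29 and 1.70 RPKM. Its log2 ratio was -0.65 [-1.12 to -0.17] and the length-adjusted value was -1.28, likewise past 2-fold in the dorsal direction. SPS1F held 92.7% of the RPKM of the 3 genes in the ventral library and 69.3% in the dorsal one.

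Sucrose carriers of the SUC family were low. SUC3 (AT2G02860, SUT2 in the deposited table, Csa5G469030) had 329 ventral and 131 dorsal reads, at 5.99 and 4.30 RPKM. SUC4 (AT1G09960, Csa2G372770), a carrier found at the vacuole membrane, had 45 ventral and 14 dorsal reads. Their log2 ratios of 0.22 [-0.079 to 0.52] and 0.57 [-0.32 to 1.55] had intervals that include 0, and the length-adjusted values were -0.19 for SUC3 and 0.59 for SUC4. SUC2, the phloem loader of Arabidopsis companion cells, had no row in the tables analysed here.

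SWEET transporters held the widest spread of ratios of any step, with a median log2 ratio of -0.045 over 8 measured genes. That median lay above 0 after length adjustment, at 0.28, with scaling by total reads, at 0.19, and by the deposited RPKM, at 0.20. The lowest ratio was in a SWEET17 copy (AT4G15920, Csa3G159450, chromosome 3), with 378 ventral and 774 dorsal reads at 17.9 and 65.9 RPKM. SWEET17 is a fructose carrier of the vacuole membrane. This copy was 4.42-fold lower in the ventral library [-2.33 to -1.97], and its length-adjusted log2 ratio was -1.76.

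The other measured SWEET17 copy (Csa1G569280, chromosome 1) had nearly the same level in each library, at 69.0 RPKM in the ventral and 59.7 RPKM in the dorsal library, and a log2 ratio of -0.052 [-0.18 to 0.074], or 0.28 after length adjustment. The copies have similar exonic lengths of 961 and 1051 bp, for Csa3G159450 and Csa1G569280. Of the reads on both copies, Csa3G159450 took 19.1% in the ventral library (exact 95% interval 17.4% to 20.9%) and 50.2% in the dorsal library (47.7% to 52.8%).

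SWEET1 (AT1G21460, Csa6G343690), a glucose carrier of the plasma membrane, had 372 ventral and 405 dorsal reads at 12.2 and 23.9 RPKM. It was 2.35-fold lower in the ventral library [-1.44 to -1.03], and its length-adjusted log2 ratio was -1.09. By the ratio of deposited RPKM it was -0.97, just short of 2-fold.

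In the other direction, SWEET12 (AT5G23660, Csa1G051710, chromosome 1), a homologue of the Arabidopsis carrier that exports sucrose ahead of phloem loading in leaves, had 222 ventral and 24 dorsal reads. It was 4.28-fold higher in the ventral library [1.49 to 2.77] and its length-adjusted log2 ratio was 2.19. Its level was low, at 6.76 RPKM in the ventral and 1.31 RPKM in the dorsal library. The SWEET12 copy with the next identifier (Csa1G051720) had 6 ventral and 0 dorsal reads, and another (Csa1G001290) had 9 ventral reads and 1 dorsal read.

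The remaining SWEET genes did not stand apart. SWEET7 (AT4G10850) had copies at 17.4 RPKM in the ventral and 19.7 RPKM in the dorsal library (Csa4G054810) and at 2.57 and 2.24 RPKM (Csa5G148830). SWEET2 (AT3G14770, Csa4G622870), of the vacuole membrane, was at 7.53 and 5.45 RPKM. SWEET10 (AT5G50790, Csa1G001300) had 29 ventral and 10 dorsal reads. The summed SWEET level was 137 RPKM in the ventral and 180 RPKM in the dorsal library.

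Cell wall invertases, which split sucrose outside the cell, were mostly 1 gene. CWINV4 (AT2G36190, Csa3G777580), the homologue of the enzyme needed for nectar secretion in Arabidopsis, had 4158 ventral and 1741 dorsal reads at 82.5 and 62.2 RPKM. Its log2 ratio was 0.15 [0.064 to 0.23], and the sign turned after length adjustment, to -0.17. The 2 measured CWINV1 copies (AT3G13790) diverged. Csa4G646140 had 384 ventral and 455 dorsal reads and was 2.56-fold lower in the ventral library [-1.56 to -1.16], with a length-adjusted log2 ratio of -1.58. Csa7G450770 had 704 ventral and 252 dorsal reads and a log2 ratio of 0.37 [0.16 to 0.58]. Its length-adjusted value was 0.21, with an interval that includes 0 [-0.00063 to 0.42]. Their order by level differed between libraries, since Csa4G646140 was at 8.34 RPKM beside 16.5 RPKM for Csa7G450770 in the ventral library, and at 17.8 beside 10.6 RPKM in the dorsal library. CWINV3 (AT1G55120, FRUCT5 in the deposited table, Csa2G351670), a protein that cleaves fructans in Arabidopsis, was at 4.42 and 4.27 RPKM in the ventral and dorsal libraries.

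Vacuolar invertase was almost all from 1 of 2 BFRUCT4 copies (AT1G12240). Csa5G174590 had 1731 ventral and 488 dorsal reads at 35.9 and 18.3 RPKM, 1.64-fold higher in the ventral library [0.57 to 0.86]. Its length-adjusted log2 ratio was 0.44. Csa5G160230 had 54 ventral and 42 dorsal reads, a log2 ratio of -0.75 [-1.36 to -0.13] and a length-adjusted value of -1.06. The single cytosolic invertase gene, CINV2 (AT4G09510, Csa7G308910), was the most abundant invertase of the 54 loci in both libraries, with 6149 ventral and 1928 dorsal reads at 135 and 76.0 RPKM. Its ratio was 1.48-fold [0.49 to 0.64], short of 2-fold, and the length-adjusted log2 ratio was 0.34. Outside the 54 loci, the neutral invertase A/N-InvA (AT1G56560, Csa2G034660) was at 70.8 RPKM in the ventral library and, above CINV2, at 83.3 RPKM in the dorsal one.

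Sucrose synthases, which turn sucrose and UDP into UDP-glucose and fructose, all had log2 ratios above 0, with a median log2 ratio of 0.70 over 4 genes and 0.16 after length adjustment. SUS4 (AT3G43190, Csa1G597800, chromosome 1), which in Arabidopsis responds to low oxygen, had 1624 ventral and 278 dorsal reads at 26.8 and 8.29 RPKM. It was 2.71-fold higher in the ventral library [1.25 to 1.62], and length adjustment left it at 0.93, short of 2-fold. SUS5 (AT5G37180, Csa5G322500), a form found in sieve elements, was the most abundant, at 47.7 RPKM in the ventral and 23.1 RPKM in the dorsal library. SUS5 had a log2 ratio of 0.78 [0.68 to 0.89]. Scaling by total reads moves it past 2-fold, to 1.02, whereas length adjustment left it at 0.17 [0.066 to 0.28]. SUS6 (AT1G73370, Csa1G031890), the other sieve element form, and SUS3 (AT4G02280, Csa4G001950) had log2 ratios of 0.62 and 0.21, and length-adjusted values of 0.14 and -0.25. SUS5 held 45.6% of the family's RPKM in the ventral library and 45.5% in the dorsal one.

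**Figure D4:**
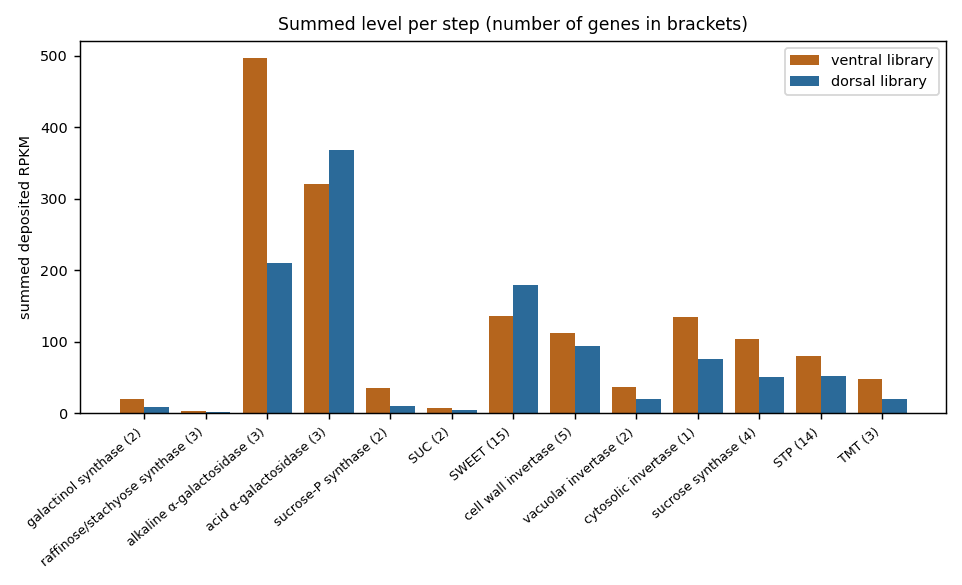
Summed deposited RPKM of all genes of each step, with ventral (left) and dorsal (right) bars and the number of genes in brackets. Bars hold the genes of the 54 loci only, so other family genes are left out, among them RS6, SPS3F, neutral invertases such as A/N-InvA, and further STP genes. Of the bars drawn, the tallest ventral one is SIP1 and SIP2 (alkaline) at 496 RPKM. The tallest dorsal one is the acid α-galactosidases at 368 RPKM, whereas the alkaline family with RS6 would reach 489 RPKM in the dorsal library.

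Of the 7 measured STP genes of the 54 loci, the plasma membrane uptake carriers for hexoses, none stood apart in either direction. The 2 measured STP1 copies (AT1G11260) were the most abundant and close to each other, with Csa1G071870 at 30.1 RPKM in the ventral and 19.4 RPKM in the dorsal library and Csa6G516920 at 31.1 and 17.5 RPKM. Their log2 ratios were 0.37 [0.21 to 0.54] and 0.57 [0.40 to 0.75], in that order, and 0.29 and 0.55 after length adjustment. Nearest to the 2-fold line was an STP13 copy (AT5G26340, Csa3G845480), with 252 ventral and 60 dorsal reads and a 1.95-fold ratio [0.55 to 1.39]. STP13 is a hexose carrier known for induction by stress and pathogens.

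STP14 (AT1G77210), a galactose carrier in Arabidopsis, had 2 copies with ratios on either side of 1. Csa2G002510 had 156 ventral and 43 dorsal reads, with a log2 ratio of 0.75 [0.25 to 1.27], and CsaUNG019690, on an unplaced scaffold, had 152 ventral and 87 dorsal reads, with a log2 ratio of -0.31 [-0.70 to 0.091]. Length adjustment gave 0.82 for Csa2G002510 and -0.38 for CsaUNG019690. STP7 (AT4G02050, Csa1G266170), which carries pentoses from the cell wall, was at 2.82 RPKM in the ventral and 2.23 RPKM in the dorsal library. The other 7 STP genes of these loci had too few reads to be measured.

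The vacuole membrane carrier TMT2 (AT4G35300) had 3 copies, all on chromosome 6, and all had log2 ratios above 0. Csa6G355400 had 998 ventral and 152 dorsal reads at 20.7 and 5.69 RPKM. It was 3.04-fold higher in the ventral library [1.36 to 1.86] and stood apart after length adjustment too, at 1.33. Csa6G118280, at 19.99 RPKM in the ventral and 10.01 RPKM in the dorsal library, had a log2 ratio of 0.74, and Csa6G509700, at 7.75 and 4.60 RPKM, had 0.50. Length adjustment left these 2 at 0.18 and 0.17. Of the reads on the 3 copies, Csa6G355400 took 37.3% (exact 95% interval 35.4% to 39.1%) in the ventral library and 23.8% (20.6% to 27.3%) in the dorsal one.

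For 9 Arabidopsis loci more than 1 cucumber copy was measured, and the shares of the copies within a library do not depend on library scaling. The exact 95% intervals of the shares did not overlap between the libraries for copies of SWEET17, CWINV1, SIP2, BFRUCT4, STP14 and TMT2, which are 6 of the 9 loci. Over the whole table this held for 1592 of 2801 loci with more than 1 measured copy (56.8%), so such a difference was common. For SIP2, Csa1G002900 took 4.45% (4.20% to 4.71%) of the reads in the ventral library and 13.7% (12.8% to 14.6%) in the dorsal one. For CWINV1, Csa4G646140 took 35.3% (32.5% to 38.2%) in the ventral library and 64.4% (60.7% to 67.9%) in the dorsal one. They overlapped for SWEET7, STP1 and STP13. How reads that match several copies were counted is not given in the sources used here, so values of like copies with neighbouring identifiers are less certain than those of single genes. These pairs of copies were compared after their values had been seen.

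**Figure D5:**
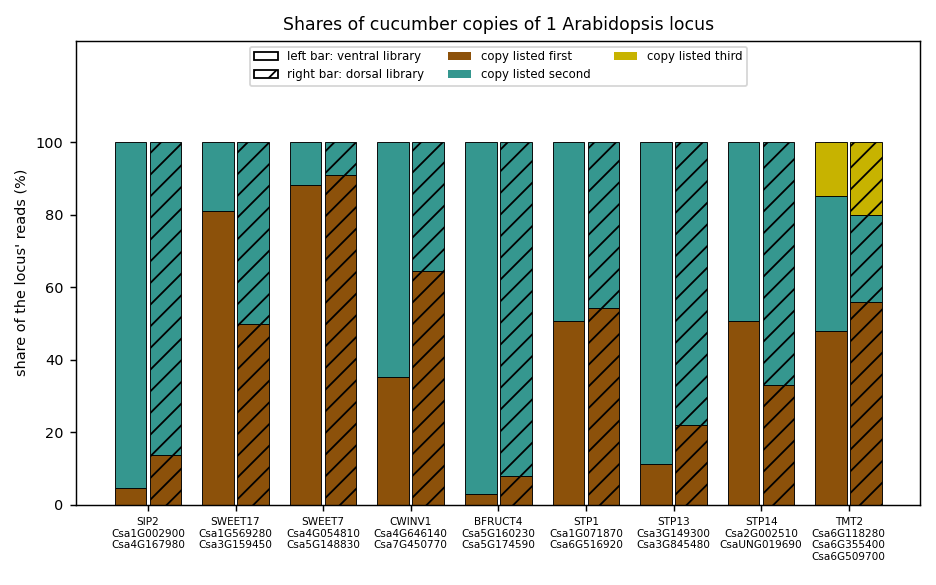
Share of the reads on all measured copies of 1 Arabidopsis locus (percent) that each cucumber copy took, with the ventral library in the left and the dorsal library in the right, hatched bar. The split of SWEET17 differs most, with 19.1% for Csa3G159450 in the ventral library and 50.2% in the dorsal one.

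Genes that take the released sugars further, and other genes of the same families, were given by a separate list of 72 Arabidopsis loci, of which 29 had rows for 37 cucumber genes, 30 of them measured. Of these, 2 were ventral-high (6.67%, against 13.2% of all measured genes), 1 was dorsal-high (3.33%, against 11.5%) and 27 were neither, and the median log2 ratio was -0.12. After length adjustment 2 were ventral-high (6.67%, against 10.9%) and 6 dorsal-high (20%, against 8.34%). UGE1 (AT1G12780, Csa5G155470), an epimerase that links UDP-galactose and UDP-glucose, had 476 ventral and 98 dorsal reads and was 2.25-fold higher in the ventral library [0.85 to 1.50], with a length-adjusted log2 ratio of 1.25. A/N-InvC (AT3G06500, Csa3G168930), a neutral invertase of organelles, had 776 ventral and 131 dorsal reads and was 2.74-fold higher in the ventral library [1.19 to 1.73], or 1.09 on the log2 scale after length adjustment. RS6 (Csa1G229500), of the same family as SIP1 and SIP2 and induced by darkness in Arabidopsis, had 9827 ventral and 9467 dorsal reads at 161 and 279 RPKM. It was 2.08-fold lower in the ventral library [-1.10 to -1.02], with a length-adjusted log2 ratio of -1.57. Scaling by total reads or by the deposited RPKM leaves RS6 short of 2-fold. The galactokinase gene (AT3G06580, Csa3G168910), whose enzyme starts the salvage of free galactose, was at 126 RPKM in the ventral and 111 RPKM in the dorsal library, a log2 ratio of -0.077 and -0.30 after length adjustment.

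Markers of other cell types also differed between the libraries. Their counts are read against the 13.2% ventral-high and 11.5% dorsal-high among all measured genes. Of 12 phloem marker loci, 6 had rows for 23 measured genes, which summed to 7280 RPKM in the ventral and 7993 RPKM in the dorsal library, with 1 ventral-high and 4 dorsal-high and a median log2 ratio of -0.026. Most of that sum came from the PP2-A1 copies Csa7G056500, at 4625 and 5641 RPKM, and Csa1G542510, at 1515 and 1220 RPKM. The xylem list summed to 28.6 RPKM in the ventral and 60.3 RPKM in the dorsal library, with 3 of 5 measured genes dorsal-high. The green tissue list summed to 2253 and 4075 RPKM, with 2 of 5 dorsal-high, the epidermis list to 151 and 95.8 RPKM, with 1 of 7 high on each side, and the carpel and ovule list to 166 and 272 RPKM, with 1 of 5 ventral-high and 2 dorsal-high. Most of the green tissue sum was LHCB1.3, at 1771 and 3523 RPKM. After length adjustment 3 phloem genes and 1 carpel and ovule gene were dorsal-high, and the other marker counts stayed the same. FUL, at -0.77, was then short of 2-fold, and AG was at -0.60. The part of these differences in the sugar gene ratios was not tested.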

How the data were processed

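Poly(A) RNA was sequenced with a strand-marking protocol, per the labels' protocols. TopHat2 and edgeR are named in the submitters' processing notes. No source used here names the build, the counting tool or its strand setting. The deposited read table holds whole-number counts per gene without normalization, and the second deposited table holds RPKM values computed by the authors. TMM factors came from edgeR 4.0.16 over genes with at least 20 reads in both libraries together. Intervals are exact conditional binomial (Clopper-Pearson) 95% intervals, from SciPy 1.17.1. Exonic length is reads over RPKM, with the constant set from 925 genes whose implied length reached the listed gene length. The length trend was a lowess fit (fraction 0.3, statsmodels 0.14.6) over 17462 measured genes. The code was tested on simulated data. A count of 0 allows up to 3 reads, or 0.137 CPM in the ventral and 0.252 CPM in the dorsal library. Named genes are every measured one that stood apart, the 2 most abundant per step, and those with 0 reads in 1 library; others are named to complete a step. Members and lists were chosen with earlier results of these data known. Columns of per-sample values left unused: 0. Step medians need at least 4 measured genes. Alternatives were DESeq2 1.42.0 size factors, total reads, RPKM ratios, length adjustment and other thresholds.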

Additional observations from a re-analysis of the deposited data

How the results depend on the processing

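No paired analysis was possible because ventral and dorsal tissue are single libraries. With DESeq2 size factors and with a minimum of 100 reads, every count stayed within 1.5 times. Every median stayed between the median lower and median upper bound of its genes' counting intervals, which is not an interval of the median itself. The counts of sugar genes also stayed within 1.5 times with a 99% interval. With the length trend removed, 4 sugar genes were ventral-high and 5 dorsal-high (7 and 3 before), and 6 other pathway genes were dorsal-high (1 before). Past 1.5-fold instead of 2-fold, 14 of 43 sugar genes were ventral-high and 6 dorsal-high, against 24.3% and 22.9% of the 17462 measured genes. Of the 30 other pathway genes, 6 were dorsal-high, against the same 22.9%. With total reads or RPKM ratios 9 sugar genes were ventral-high, and 0 other pathway genes were dorsal-high. Dorsal-high sugar genes were then 3 with total reads and 2 with RPKM ratios. Both scalings raise the log2 ratios of all genes, by 0.23 with total reads and by 0.26 with RPKM, apart from rounding. The shares over all measured genes were not counted under them, so these counts are not read as a result about sugar genes. The median log2 ratio under total reads, length removal and RPKM was 0.20, -0.35 and 0.23 for cell wall invertases (-0.033 before), 0.94, 0.16 and 0.96 for sucrose synthases (0.70 before), and 0.11, -0.40 and 0.14 for other pathway genes (-0.12 before). For the 43 sugar genes the median was 0.45, 0.17 and 0.48 in the same order (0.22 before). With a minimum of 1 read the STP median was 0.096 (0.37 before).

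Summed RPKM, as the log2 ratio ventral over dorsal, moved when the most abundant gene was left out. It was then 0.19 for galactinol synthases, 1.38 for raffinose and stachyose synthases, 0.30 for alkaline and -0.47 for sucrose-phosphate synthase, -0.83 for SWEET, -0.15 for cell wall invertase, -0.46 for vacuolar invertase and 1.47 for TMT, against 1.13, 0.68, 1.24, 1.82, -0.40, 0.24, 0.90 and 1.25 with it, where alkaline stands for the alkaline α-galactosidase family. Rescaled by TMM, the sums gave 0.98 for alkaline and -0.46 for acid α-galactosidase, 1.56 for sucrose-phosphate synthase, -0.66 for SWEET, -0.023 for cell wall invertase, 0.64 for vacuolar invertase, 0.78 for sucrose synthase, 0.38 for STP and 0.99 for TMT. With family genes outside the 54 loci added, chosen after seeing the data, the sums gave 0.43 for the alkaline family and 1.64 for sucrose-phosphate synthase. The cause was not tested beyond these constructions. No sugar gene that stood apart changed direction under any setting; length removal left 3 of them short of 2-fold, and the RPKM ratio 1. Genes with few reads, such as RS5 with 15 dorsal reads, are limited by depth.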

Other observations

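Of the 59 sugar genes, 16 had between 1 and 12 reads in both libraries together and entered no comparison. Among them 5 had 0 dorsal reads, with at most 6 ventral reads, and 2 had 0 ventral reads, with at most 4 dorsal reads. The zero-read genes were copies of RS5 (Csa1G046280), SWEET12 (Csa1G051720), SWEET5 (Csa1G046010), SWEET17 (Csa2G031160) and CWINV1 (Csa7G450790) in the dorsal library and of STP1 (Csa5G643980) and STP13 (Csa3G148790) in the ventral library. SWEET5 (AT5G62850), a homologue of a carrier known from pollen, had 3 copies with 4, 1 and 8 ventral reads and 0, 1 and 4 dorsal reads. SWEET15 (AT5G13170, Csa6G092510), a homologue of a carrier linked to leaf senescence and seed filling, had 7 ventral reads and 1 dorsal read. Of the 7 STP13 copies 5 were in this group, with 0 to 7 ventral and 2 to 6 dorsal reads.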
